A study of Mus musculus with 8 samples.

Results

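The genes described here are 38 canonical imprinted genes of the mouse, chosen as a list of well-known imprinted loci, with earlier results of these data known, and found by symbol in a table of RNA counts for 24062 genes and 1153 repeat subfamilies. All 38 were in the table, and 31 passed the filter on low counts. The 7 that did not were Calcr, Meg3, Mirg, Ndn, Magel2, Plagl1 and Ascl2. By textbook knowledge 19 of the 38 are expressed from the paternal copy and 15 from the maternal copy. In the remaining 4, Blcap, Gnas, H13 and Inpp5f, the active copy depends on the transcript.

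At an imprinted gene, DNA methylation set in the egg or the sperm marks the parental copies differently at an imprinting control region, and the gene is then active mainly on the mother's or on the father's copy. Most imprinted genes lie in clusters that share a control region, often with a long noncoding RNA such as Airn or Kcnq1ot1 that silences its neighbours on the same chromosome. Polycomb and H3K9 methylation are known to add to this silencing, above all in the placenta. Counts per gene do not separate the parental copies, so the values below do not say which copy a transcript came from. In bulk RNA, expression in fewer cells and less RNA per cell cannot be told apart.

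Poly(A) RNA came from immortalized mouse embryonic fibroblasts labelled 6KO. In every group, controls included, these cells lack Ring1b, a ubiquitin ligase gene of the Polycomb complex PRC1, and the H3K9 methyltransferase genes Ehmt1, Ehmt2, Setdb1, Suv39h1 and Suv39h2. The 4 groups carried the Ring1a shRNA with DS3201, the control shRNA with DS3201, the Ring1a shRNA alone, or the control shRNA alone. DS3201 inhibits EZH1 and EZH2, the H3K27 methyltransferases of PRC2, and was given at 1 uM for 7 days. The shRNA was delivered by lentivirus, and transduced cells were selected with blasticidin (labelled BSD). Gene positions are those of the GENCODE annotation of GRCm38. No group has cells with intact H3K9 methyltransferase genes or Ring1b, so each comparison is within the mutant background. Each group had 2 libraries, named set 20 and set 28 after the prefixes of their columns. The labels call the replicates of a group batch 1 and batch 2, and nothing says that they were separate cultures, so the spread behind each p-value is that of 2 libraries per group and may be of technical origin.

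Total counts ran from 12738585 to 23688253 per library. At these depths 3 counts correspond to between 0.122 and 0.265 CPM (CPM being the count scaled to the library size). Per-library values are given with set 20 before set 28. Ring1, the target of the Ring1a shRNA, had 3.52 and 2.04 CPM in the libraries with the Ring1a shRNA and DS3201, against 20.4 and 7.51 CPM with the control shRNA and DS3201. Without the inhibitor it had 4.51 and 1.41 CPM with the Ring1a shRNA and 20.2 and 9.73 CPM with the control shRNA. Reads on Rnf2, the symbol of Ring1b, were counted in all 8 libraries, at 26.4 to 89.0 CPM. A gene count does not say whether such a transcript is intact. In a principal component analysis the first component, with 54.4% of the variance, separated the libraries by DS3201, and the second, with 29.3%, separated the sets. On the third (7.58%) the set 28 library with the control shRNA and DS3201 stood at 52.8, outside the -30.4 to 26.7 of the other libraries.

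Some imprinted genes rose in the cells given DS3201, and most did not pass. Averaged over both shRNAs, 7 of the 31 tested members rose with DS3201 and none fell (edgeR quasi-likelihood test, Benjamini-Hochberg adjustment over 15287 tested entries, threshold 0.05). The risers were Peg3, Usp29, Igf2, H19, Mest, Grb10 and Rian. Of all tested entries 5.24% rose and 0.216% fell. With the set as a replicate block the count was 11 higher and 0 lower, adding Zim1, Dio3, Phlda2 and Gnas, where 12.9% of all entries rose and 4.16% fell. Without the block the members that rose lay in H19-Igf2 (both genes), the Peg3 cluster (Peg3 and Usp29), Mest and Grb10. The remaining riser was the noncoding RNA Rian of Dlk1-Dio3. The block added Zim1 in the Peg3 cluster, Dio3 in Dlk1-Dio3, Phlda2 in the Kcnq1ot1 domain, and Gnas. No member of the Igf2r-Airn, Peg10-Sgce, Snrpn or Nnat-Blcap domains passed in either fit.

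The ranges were also compared without a model. In 9 of the 31 tested members all 4 DS3201 libraries lay above all 4 libraries without it, and among all tested entries this held for 12.3%. Ascl2, which failed the filter, was the 10th such gene of the 38. In Igf2r alone among the tested members all DS3201 libraries lay below the others, which held for 5.28% of all entries. Leaving out single libraries lowered the count of 7. It was 5 without the set 20 library with the control shRNA and DS3201, 4 without either set 28 library with the Ring1a shRNA, and 3 without each of the other 5 libraries. Peg3 and Igf2 were called in all 8 of these fits. With the block the count of 11 was 5 without the set 20 library with the Ring1a shRNA and DS3201 and 7 without its set 28 counterpart, and Peg3, Igf2, H19 and Mest were called in all 8 fits.

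**Figure D1:**
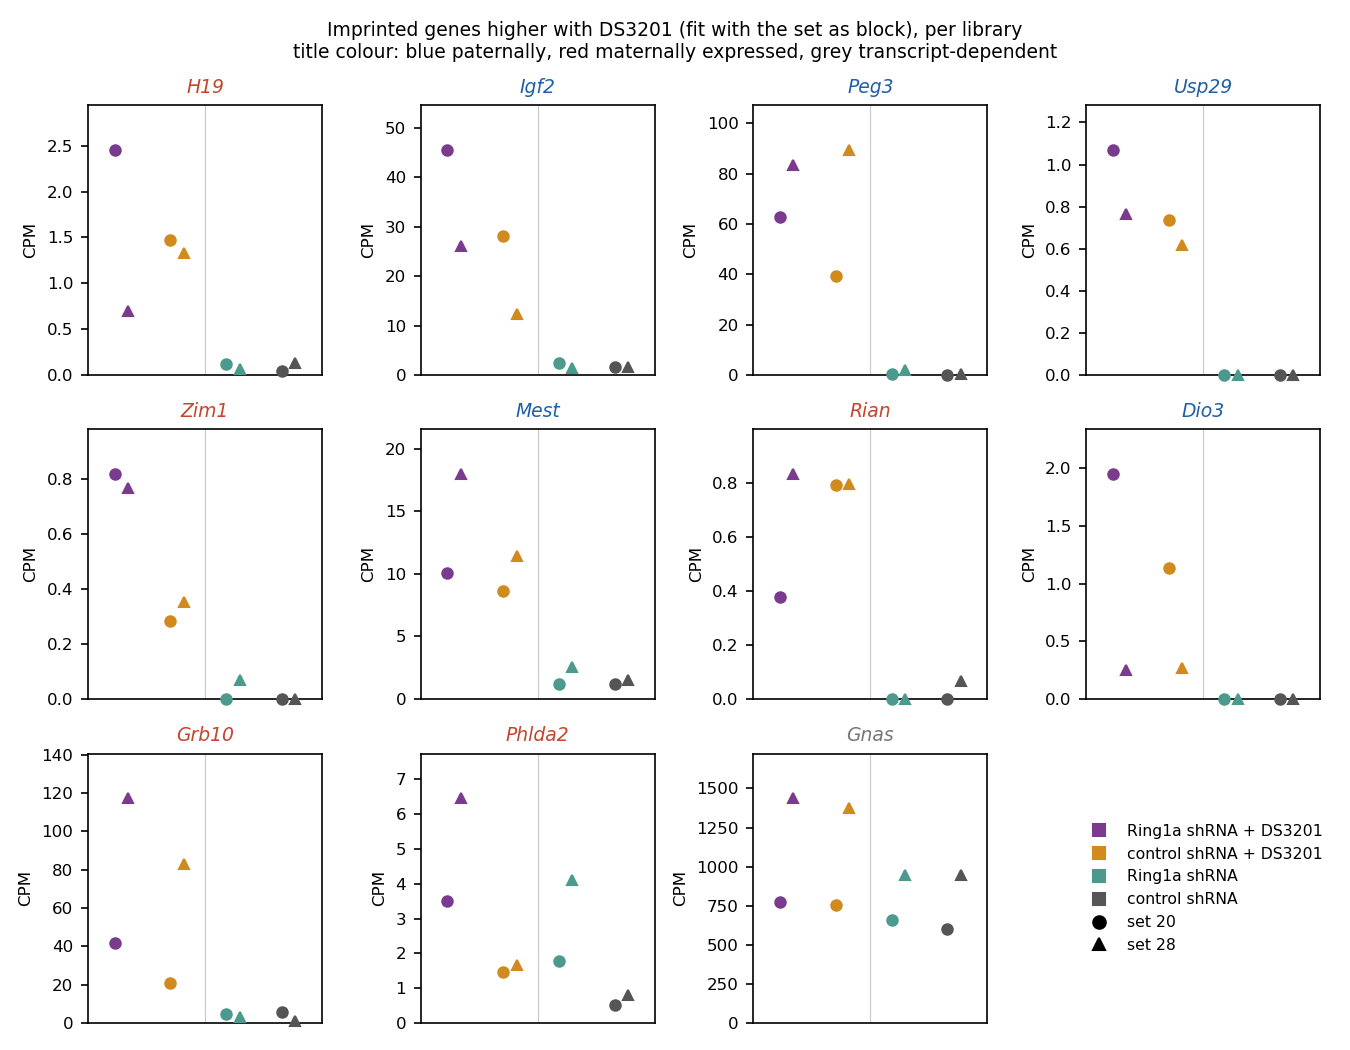
CPM per library (vertical axis, linear, own scale per gene) of the 11 imprinted genes called higher with DS3201 in the fit with the set as a block. Circles are set 20 and triangles set 28, with DS3201 libraries left of the grey line and libraries without it on the right. Peg3 sits at 39.5 to 89.3 CPM with DS3201 and at 0.0475 to 1.89 CPM without it, whereas the ranges of Phlda2 and Gnas overlap.

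Promoter sequence was read for the members from RefSeq (build GRCm38.p6), as windows of 300 bases around each annotated start. Of the 38 members 33 had an entry, with 49 windows. Methylation at CG dinucleotides carries the imprint, so these are shown in capitals, for the starts of members on both sides of the comparison. The windows were not matched to imprinting control regions, and methylation was not measured. The set is Peg3 (chr7:6730370-6730669, minus strand) and its maternally expressed neighbour Zim1 (chr7:6696383-6696682, minus strand), a downstream start of Mest (chr6:30737800-30738099, plus strand), the upstream start of Grb10 (chr11:12037371-12037670, minus strand), Rian (chr12:109603695-109603994, plus strand) and, as the member whose DS3201 libraries were all lower, Igf2r (chr17:12769657-12769956, minus strand).
Peg3: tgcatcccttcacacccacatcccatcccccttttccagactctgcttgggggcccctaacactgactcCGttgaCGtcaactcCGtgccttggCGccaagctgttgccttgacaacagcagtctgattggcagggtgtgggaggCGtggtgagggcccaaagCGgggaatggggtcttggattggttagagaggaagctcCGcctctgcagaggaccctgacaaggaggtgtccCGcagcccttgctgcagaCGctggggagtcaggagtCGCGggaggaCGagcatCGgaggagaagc
Zim1: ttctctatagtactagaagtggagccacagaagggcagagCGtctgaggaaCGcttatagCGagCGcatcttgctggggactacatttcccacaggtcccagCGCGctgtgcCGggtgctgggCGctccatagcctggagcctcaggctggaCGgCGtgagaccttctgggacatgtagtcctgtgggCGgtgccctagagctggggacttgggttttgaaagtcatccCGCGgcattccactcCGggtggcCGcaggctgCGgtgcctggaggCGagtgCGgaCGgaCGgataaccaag
Mest: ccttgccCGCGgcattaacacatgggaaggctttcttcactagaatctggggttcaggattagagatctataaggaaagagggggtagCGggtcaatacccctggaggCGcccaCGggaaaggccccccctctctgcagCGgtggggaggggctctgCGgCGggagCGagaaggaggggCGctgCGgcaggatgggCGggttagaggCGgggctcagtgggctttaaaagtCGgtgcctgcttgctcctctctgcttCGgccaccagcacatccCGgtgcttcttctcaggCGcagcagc
Grb10: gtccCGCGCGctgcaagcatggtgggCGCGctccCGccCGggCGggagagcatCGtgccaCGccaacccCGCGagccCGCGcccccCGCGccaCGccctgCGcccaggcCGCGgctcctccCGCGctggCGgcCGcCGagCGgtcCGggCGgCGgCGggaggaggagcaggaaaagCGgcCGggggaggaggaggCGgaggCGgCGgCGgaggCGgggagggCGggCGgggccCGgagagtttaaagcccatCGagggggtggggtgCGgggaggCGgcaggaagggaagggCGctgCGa
Rian: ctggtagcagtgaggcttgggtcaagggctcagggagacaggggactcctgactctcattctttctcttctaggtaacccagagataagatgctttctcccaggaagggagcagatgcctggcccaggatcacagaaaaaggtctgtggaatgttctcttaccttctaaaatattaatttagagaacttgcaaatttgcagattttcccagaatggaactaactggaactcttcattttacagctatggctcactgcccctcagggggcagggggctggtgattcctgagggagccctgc
Igf2r: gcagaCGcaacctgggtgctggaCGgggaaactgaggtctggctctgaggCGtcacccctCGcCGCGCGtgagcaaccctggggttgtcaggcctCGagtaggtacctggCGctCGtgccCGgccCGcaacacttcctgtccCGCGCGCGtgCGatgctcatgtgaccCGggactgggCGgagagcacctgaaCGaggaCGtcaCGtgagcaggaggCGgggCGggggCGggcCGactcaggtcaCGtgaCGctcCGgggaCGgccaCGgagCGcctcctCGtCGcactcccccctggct

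The printed windows differ widely in CG content. That of Grb10 holds 45 CG dinucleotides, that of Igf2r 34, that of Zim1 20, that of Mest 17 and that of Peg3 13. The Rian window, at an annotated start, holds 0, and Rian was among the genes that rose. Over the 19 windows of the 10 members with an entry that rose in the blocked fit, the median was 17 CG dinucleotides and the median ratio of observed to expected CG was 0.65. For the 30 windows of the other 23 members the medians were 10 and 0.582, and for all 32851 RefSeq windows the medians were 7 and 0.384. The hexamer TGCCGC, which the imprint-binding protein ZFP57 recognizes when its CG is methylated, was searched on both strands. It occurred in 26.3% of the windows of the members that rose, in 16.7% of those of the other members and in 11.6% of all windows. Some windows of the same gene overlap, such as a pair of Mest windows that both hold the hexamer, so these shares are descriptions. The starts of Peg3 and Usp29 lie 164 bases apart on opposite strands, and their windows share 263 bases.

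Igf2 encodes the fetal growth factor IGF2 (chr7:142650766-142666816, minus strand). It had 45.5 and 26.1 CPM with the Ring1a shRNA and DS3201 and 28.1 and 12.3 CPM with the control shRNA and DS3201, against 2.52 and 1.41 CPM with the Ring1a shRNA alone and 1.57 and 1.61 CPM with the control shRNA alone. The lowest DS3201 library was thus well above the highest library without it. The log2 fold change with DS3201 was 3.92 ± 0.39 (SE, adjusted p = 0.00664), and the difference on the log2 CPM scale was 4.09 within set 20 and 3.47 within set 28.

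H19, a maternally expressed noncoding RNA and microRNA host downstream of Igf2 (chr7:142575529-142578143, minus strand), shares enhancers with it and is expressed from the opposite parental copy. H19 reached 2.45 and 0.703 CPM with the Ring1a shRNA and DS3201 and 1.47 and 1.32 CPM with the control shRNA and DS3201, against 0.122 and 0.0673 CPM with the Ring1a shRNA alone and 0.0475 and 0.134 CPM with the control shRNA alone. These are low counts, 91 in all DS3201 libraries and 7 in the others. The groups did not overlap, and the log2 fold change was 3.91 ± 0.66 (adjusted p = 0.0235). Both reciprocally imprinted genes of the domain therefore rose. Per kilobase of exon, H19 averaged 0.605 CPM with DS3201 and 0.0377 CPM without it, below Igf2 at 4.89 CPM with it and 0.311 CPM without it.

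IGF2 is cleared by the receptor encoded by Igf2r, which is maternally expressed and silenced on the paternal chromosome by the overlapping antisense RNA Airn. Igf2r (chr17:12682406-12769664, minus strand) had 424 and 437 CPM with the Ring1a shRNA and DS3201 and 334 and 419 CPM with the control shRNA and DS3201, against 528 and 503 CPM with the Ring1a shRNA alone and 528 and 479 CPM with the control shRNA alone. All DS3201 libraries were lower, yet the log2 difference of -0.34 ± 0.14 did not pass (adjusted p = 0.272, and 0.0976 with the block). Airn had 2.05 ± 0.493 CPM with DS3201 and 2.81 ± 1.08 CPM without it (SD, n = 4 each, both shRNAs and sets mixed), with overlapping ranges and adjusted p = 0.638. Reads of Igf2r and Airn cannot be separated where they overlap unless counting used strand, which the sources used here do not say.

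Peg3, a paternally expressed zinc finger gene (chr7:6703892-6730431, minus strand), had the largest fitted change among members with counts in every group. It had 62.9 and 83.6 CPM with the Ring1a shRNA and DS3201 and 39.5 and 89.3 CPM with the control shRNA and DS3201, against 0.325 and 1.89 CPM with the Ring1a shRNA alone and 0.0475 and 0.336 CPM with the control shRNA alone. In counts this was 4018 over the 4 DS3201 libraries and 42 over the 4 others. The log2 fold change was 7.30 ± 0.74 (adjusted p = 0.00664), with differences of 7.53 within set 20 and 6.51 within set 28 on the log2 CPM scale.

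Usp29 is transcribed away from the Peg3 start in the opposite direction and is also paternally expressed; its family encodes ubiquitin proteases. It had 1.07 and 0.767 CPM with the Ring1a shRNA and DS3201 and 0.736 and 0.618 CPM with the control shRNA and DS3201, and 0 counts in all 4 libraries without the inhibitor. Against a floor of 3 counts over those libraries, Usp29 was at least 20.3-fold higher (adjusted p = 0.0251).

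Zim1, the maternally expressed zinc finger gene of the cluster, was detected at the limit of these libraries. It had 0.816 and 0.767 CPM with the Ring1a shRNA and DS3201 and 0.283 and 0.353 CPM with the control shRNA and DS3201, against 0 and 0.0673 CPM with the Ring1a shRNA alone and 0 counts in both libraries with the control shRNA alone. The ratio of 34 counts to 1 count, scaled by library size, was 42.3 (95% counting interval 7.10 to 1721). Its adjusted p, 0.05 after rounding, lay just above the threshold, and was 0.0166 with the block, in which all 3 genes of the cluster rose. Per kilobase, Peg3 averaged 5.16 CPM with DS3201, Usp29 0.0441 CPM and Zim1 0.0686 CPM.

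Mest, a paternally expressed hydrolase of mesodermal tissue (chr6:30723547-30748465, plus strand), gave the most even rise across sets among the 11 genes. Its libraries had 10.1 and 17.9 CPM with the Ring1a shRNA and DS3201 and 8.61 and 11.4 CPM with the control shRNA and DS3201, against 1.22 and 2.56 CPM with the Ring1a shRNA alone and 1.19 and 1.54 CPM with the control shRNA alone. No DS3201 library fell in the range of the others. The log2 fold change was 2.88 ± 0.36 (adjusted p = 0.0108), and the within-set differences were 2.84 in set 20 and 2.77 in set 28.

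Grb10 encodes an adaptor that dampens signalling by insulin and growth factor receptors and is maternally expressed outside neurons (chr11:11930508-12038683, minus strand). It had 41.7 and 117 CPM with the Ring1a shRNA and DS3201 and 21.1 and 82.8 CPM with the control shRNA and DS3201, against 4.47 and 2.89 CPM with the Ring1a shRNA alone and 5.61 and 1.21 CPM with the control shRNA alone. The groups did not overlap, but the sets differed in size of change. The log2 CPM difference was 2.54 in set 20 and 5.63 in set 28, and the fitted log2 fold change was 4.16 ± 0.71 (adjusted p = 0.0254). Grb10 has transcripts from separate starts with opposite imprinting in brain, and the gene count does not separate them.

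The Dlk1-Dio3 domain carries protein-coding genes active on the paternal copy and a chain of noncoding RNAs active on the maternal copy. Rian, a maternally expressed host of C/D snoRNAs, had 0.377 and 0.83 CPM with the Ring1a shRNA and DS3201 and 0.793 and 0.795 CPM with the control shRNA and DS3201, against 0 counts in both libraries with the Ring1a shRNA alone and 0 and 0.0671 CPM with the control shRNA alone. Its 42 counts against 1 count amount to a 52.3-fold ratio, with limits of 8.89 and 2114 for counting error at 95%, and an adjusted p of 0.0392. Meg3, which lies upstream and is normally transcribed in the same orientation, had 6 counts over the 4 DS3201 libraries and 0 over the others, under the filter. Mirg, the microRNA host further downstream, had 0 counts in all 8 libraries.

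Dio3, at the far end of the domain, encodes the deiodinase that inactivates thyroid hormone. It had 1.95 and 0.255 CPM with the Ring1a shRNA and DS3201 and 1.13 and 0.265 CPM with the control shRNA and DS3201, and 0 counts in all 4 libraries without DS3201. The bound was at least 24.1-fold higher, with adjusted p = 0.0895, and 0.00783 with the block. Dlk1, the paternally expressed Notch-family ligand that holds back adipocyte differentiation, differed by set. It had 33.5 and 61.9 CPM with the Ring1a shRNA and DS3201 and 18.01 and 44.0 CPM with the control shRNA and DS3201, against 20.4 and 75.7 CPM with the Ring1a shRNA alone and 14.4 and 77.2 CPM with the control shRNA alone. Every set 28 library was above every set 20 library, and with DS3201 the adjusted p was 0.879.

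In the Kcnq1ot1 domain the noncoding RNA Kcnq1ot1 runs from the paternal copy, antisense to Kcnq1, and silences maternally expressed neighbours such as Phlda2. Phlda2, a limiter of placental growth (chr7:143501545-143503150, minus strand), had 3.52 and 6.45 CPM with the Ring1a shRNA and DS3201 and 1.47 and 1.68 CPM with the control shRNA and DS3201, against 1.79 and 4.11 CPM with the Ring1a shRNA alone and 0.523 and 0.805 CPM with the control shRNA alone. DS3201 and no-DS3201 libraries overlapped, but within each shRNA and set the DS3201 library was the higher. The log2 fold change with DS3201 was 1.00 ± 0.42 (adjusted p = 0.28), and 1.05 ± 0.28 with the block (adjusted p = 0.0427).

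Kcnq1ot1 itself had 8.04 and 7.03 CPM with the Ring1a shRNA and DS3201 and 8.15 and 24.6 CPM with the control shRNA and DS3201, against 4.63 and 8.48 CPM with the Ring1a shRNA alone and 4.23 and 8.59 CPM with the control shRNA alone. The highest value belongs to the library that stood apart on the third principal component, and the difference with DS3201 did not pass (adjusted p = 0.436, and 0.104 with the block). Ascl2, a trophoblast transcription factor gene, had 7 and 3 counts with the Ring1a shRNA and DS3201, 1 and 1 with the control shRNA and DS3201, and 0 in the 4 libraries without it. Slc22a18, a membrane transporter gene, had 18 counts with DS3201 and 30 without it, and no direction could be given (adjusted p = 0.993).

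Gnas, whose main product is the stimulatory G protein alpha subunit, was the most abundant member per kilobase, at 96.9 CPM with DS3201 and 70.3 CPM without it. Its libraries had 771 and 1436 CPM with the Ring1a shRNA and DS3201 and 754 and 1376 CPM with the control shRNA and DS3201, against 656 and 944 CPM with the Ring1a shRNA alone and 602 and 945 CPM with the control shRNA alone. The sets differed and the ranges overlapped, while each DS3201 library exceeded its set's counterpart. The log2 fold change was 0.46 ± 0.32 (adjusted p = 0.529), and 0.43 ± 0.12 with the block (adjusted p = 0.0483). The count pools the biallelic and the imprinted transcripts of the locus.

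**Figure D2:**
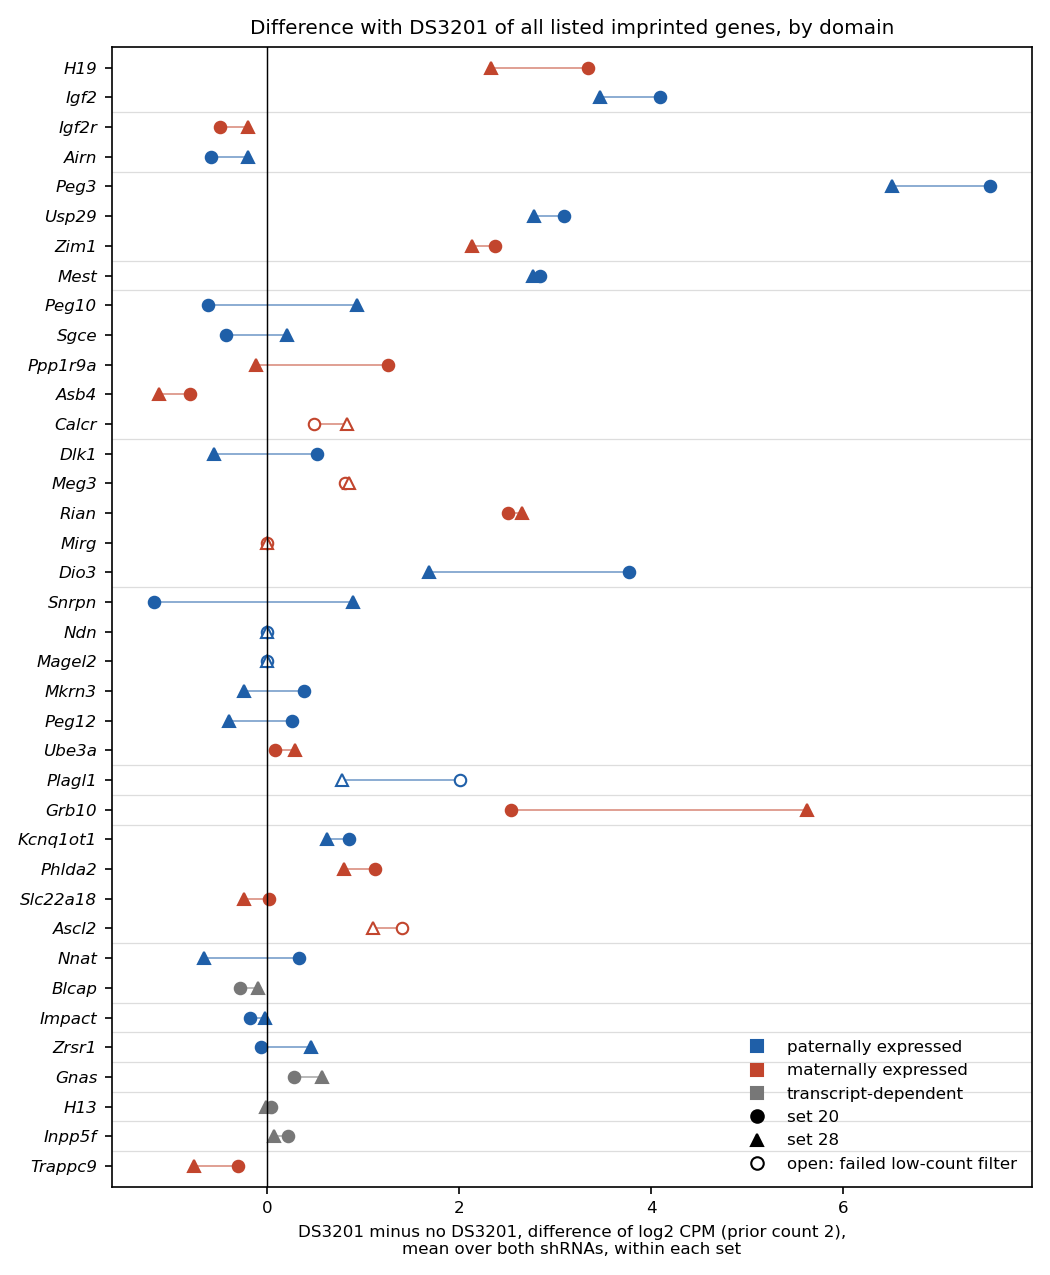
Difference of log2 CPM (prior count 2) between libraries with and without DS3201, averaged over both shRNAs, for all 38 genes grouped by domain. Circles are set 20, triangles set 28, open symbols genes that failed the low-count filter, and colours give the expressed parental copy. The large positive differences lie in H19-Igf2, Peg3, Mest, Grb10 and part of Dlk1-Dio3, and several genes near 0, such as Peg10, Snrpn and Dlk1, have sets on opposite sides.

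The other tested members did not pass in either fit. In the Peg10-Sgce domain Peg10, a retrotransposon-derived gene needed for the placenta, had 164 to 328 CPM with DS3201 and 136 to 265 CPM without it. Its log2 difference was -0.61 within set 20 and 0.94 within set 28. Sgce (epsilon-sarcoglycan), which shares the Peg10 promoter region, had 21.3 to 43.3 CPM with DS3201 and 26.4 to 36.9 CPM without it. Ppp1r9a (neurabin), maternally expressed, had 0.963 to 4.68 CPM with DS3201 and 0.285 to 3.97 CPM without it. Asb4, a maternally expressed ubiquitin ligase adaptor, had 0.0639 to 0.753 CPM with DS3201 and 0.604 to 1.76 CPM without it. The adjusted p of these 4 genes with DS3201 ran from 0.556 for Asb4 to 0.95 for Ppp1r9a. Calcr, the calcitonin receptor gene, had 6 counts in the DS3201 libraries and 0 in the others.

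The Snrpn domain, the mouse counterpart of the Prader-Willi and Angelman region, showed expressed and undetected genes side by side. The paternally expressed MAGE genes Ndn and Magel2 had 0 counts in all 8 libraries, while paternally expressed genes beside them were detected. Mkrn3, a ubiquitin ligase gene, had 1.15 to 1.87 CPM with DS3201 and 1.18 to 1.68 CPM without it. Peg12, of the FRAT family, had 4.33 to 7.53 CPM with DS3201 and 5.04 to 7.87 CPM without it. Snrpn, encoding the spliceosomal protein SmN, separated by set without the inhibitor, with 5.08 and 1.28 CPM with the Ring1a shRNA alone and 6.04 and 1.07 CPM with the control shRNA alone. In the DS3201 libraries it held between 2.17 and 2.49 CPM. Ube3a, the ubiquitin ligase gene imprinted only in neurons, had 85.5 to 162 CPM with DS3201 and 79.7 to 103 CPM without it. None of these 4 tested neighbours of Ndn passed with DS3201, with adjusted p from 0.695 for Ube3a to 0.936 for Peg12.

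Among the remaining loci, the adjusted p with DS3201 ran from 0.695 for Inpp5f, an inositol phosphatase gene, to 0.968 for H13, the signal peptide peptidase gene. Nnat, a paternally expressed proteolipid gene inside an intron of Blcap, had 0.453 to 0.879 CPM with DS3201 and 0.475 to 1.01 CPM without it. Blcap had 28.3 to 42.5 CPM with DS3201 and 33.9 to 44.9 CPM without it. Impact, a regulator of the GCN2 stress pathway, had 32.1 to 41.9 CPM with DS3201 and 34.2 to 42.7 CPM without it, and the splicing factor gene Zrsr1, inside Commd1, had 14.1 to 21.3 CPM with it and 11.9 to 21.8 CPM without it. Trappc9, imprinted in brain, had 8.48 to 35.9 CPM with DS3201 and 16.9 to 44.7 CPM without it, with the lowest value again in the set 28 library with the control shRNA and DS3201. Plagl1, a paternally expressed zinc finger gene that failed the filter, had 18 counts with DS3201 and 2 without it, a ratio of 11.2 (95% counting interval 2.68 to 99.6).

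Genes of both parental classes rose. With DS3201 4 of 16 tested paternally expressed members (Peg3, Usp29, Igf2 and Mest) and 3 of 11 tested maternally expressed members (H19, Grb10 and Rian) were higher, and with the block 5 of 16 and 5 of 11. Of the 4 transcript-dependent genes 0 passed, and 1, Gnas, with the block. Among all tested entries 5.24% rose, and 12.9% with the block. The median log2 CPM difference over the 17 paternally expressed genes with any count was 0.16, with 0.39 in set 20 and 0.62 in set 28. Over the 14 maternally expressed genes with any count it was 0.74, with 1.02 in set 20 and 0.75 in set 28. The middle values of these 14 genes belong to Calcr and Meg3, which failed the filter. Each had 6 counts with DS3201 and 0 without it. The maternal median is thus set by genes near the floor, and no conclusion is drawn from it. All 35 members with a count had a median of 0.19, and all 20694 genes with a count 0.10. The maternal median was 1.21 with a prior count of 0.5 and 0.44 with a prior count of 5. The paternal median was 0.41, 0.32 and 0.30 without the set 20 libraries with the control shRNA alone, the Ring1a shRNA alone and the control shRNA with DS3201, and 0.086 without the set 28 library with the control shRNA alone. The difference between the parental classes was not tested, since genes are not replicates. In the H19-Igf2 domain genes of opposite parental expression both rose, and in the Peg3 and Dlk1-Dio3 domains they did so with the block.

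Starting level separates the counts further. Of the 8 tested members with a mean under 1 CPM without DS3201, 4 rose (H19, Peg3, Usp29 and Rian), and 6 with the block, which adds Zim1 and Dio3. Among all entries under that level 29.0% rose, and 54.4% with the block. The filter admits an entry by its counts in any group. Entries at 0 without DS3201, such as Usp29 and Dio3, therefore passed it only through their DS3201 libraries. The shares among low entries are thus set in part by the filter, and no conclusion is drawn from them. Of the 23 tested members at 1 CPM or more, 3 rose (Igf2, Mest and Grb10), and 5 with the block, which adds Phlda2 and Gnas. For all entries at or above 1 CPM the shares were 1.11% and 5.70% with the block.

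The inhibitor was then compared within each shRNA, 2 libraries per side, in the fit over all 8 libraries that shares 1 estimate of the spread. Fitted on the 4 libraries compared alone, each of these contrasts called 0 members. With DS3201 in control shRNA cells 1 member passed, Peg3 (8.48 ± 1.13, adjusted p = 0.0425), where 0.726% of all entries rose and 0.00% fell. The block gave 6, with Igf2, Mest, H19, Usp29 and Dio3 beside Peg3, against 6.62% of entries higher and 0.706% lower. With DS3201 in Ring1a shRNA cells 1 member passed, Igf2 (4.17 ± 0.56, adjusted p = 0.04), where 0.602% of entries rose and 0.00% fell. There the block gave 7, these 6 genes and Grb10, against 6.05% higher and 0.824% lower. Peg3 lost its call without any library of its contrast or either library with the Ring1a shRNA and DS3201, and Igf2 without any of the 8 libraries (0 members left). A gene called with only 1 of the shRNAs is not thereby shown to respond differently. The test of that difference, the interaction of Ring1a shRNA and DS3201, called 0 members in either fit by edgeR (0.00% of entries), 0 members had an unadjusted p under 0.05 without the block and 1, Peg3, with it, and DESeq2 called 0. The interaction was called for Ube3a only in the blocked fit without the set 20 library with the control shRNA and DS3201. For that fit no share of all entries is given. For Peg3 the interaction was -2.35 ± 1.37 (adjusted p = 1, and 0.99 with the block).

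Cells with the Ring1a shRNA and DS3201 were also set against cells with the control shRNA alone. Here 3 members rose, Peg3 (8.66 ± 1.14, adjusted p = 0.0298), Igf2 (4.49 ± 0.57, adjusted p = 0.0288) and Mest (3.36 ± 0.52, adjusted p = 0.0453), where 1.43% of all entries rose and 0.0327% fell. In the blocked fit 9 rose, adding H19, Grb10, Usp29, Zim1, Dio3 and Phlda2, against 9.21% of entries higher and 2.06% lower. Phlda2 had the log2 fold change 2.90 ± 0.63 (adjusted p = 0.0833, and 0.00774 with the block). The count of 3 was 1 without the set 20 library with the control shRNA and DS3201, 0 without each of the other 5 libraries that hold DS3201 or the control shRNA, and unchanged without either library with the Ring1a shRNA alone. Fitted on the 4 libraries compared alone, 0 members were called. This comparison shares the control libraries with that of DS3201 in control shRNA cells.

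No imprinted gene passed for the Ring1a shRNA in the edgeR fits over all 8 libraries. Averaged over both inhibitor states, without DS3201 and with DS3201, 0 members passed in each case with and without the block, as for all entries (0.00%). Ring1, the target of the shRNA, was among the tested entries and so did not pass either. A count of 0 here therefore does not show that a gene did not respond. In each of these 3 contrasts 1 member, Phlda2, had an unadjusted p under 0.05 by edgeR, and 5, 3 and 2 members with the block. DESeq2 called 0, and 1, Phlda2, with the block for the average over inhibitor states. The blocked fit without the set 20 library with the control shRNA and DS3201 called Phlda2, Igf2, Sgce, Ube3a and Zrsr1, in both directions. That fit leaves 1 library in this group. No share of all entries is given for it, so its calls are not read as a result. Averaged over inhibitor states Phlda2 had the log2 fold change 1.90 ± 0.43 with the Ring1a shRNA (adjusted p = 1, and 0.218 with the block), and all 4 pairs of libraries matched on set and inhibitor had it higher with the Ring1a shRNA. Peg3 without DS3201 had 36 counts with the Ring1a shRNA and 6 with the control shRNA, a ratio of 5.46 whose 95% counting interval ran from 2.28 to 15.9. Over the libraries its adjusted p was 1.

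Other maternally expressed genes of the Kcnq1ot1 domain were examined beside Phlda2 after its values were seen. Cdkn1c, a cyclin-dependent kinase inhibitor gene, had 271 and 252 CPM with the Ring1a shRNA alone, against 159 and 174 CPM with the control shRNA alone. With DS3201 it had 220 and 318 CPM with the Ring1a shRNA and 160 and 320 CPM with the control shRNA. Its adjusted p was 1 without the inhibitor. Slc22a18 had 23 and 2 counts with the Ring1a shRNA alone, against 5 and 0 with the control shRNA alone. Further imprinted genes of this region went both ways in the same comparison. Cd81 had 175 and 151 CPM with the Ring1a shRNA alone, against 162 and 122 CPM with the control shRNA alone. In the same order Osbpl5 had 38.5 and 38.4 CPM against 43.0 and 49.8 CPM. Nap1l4 had 66.5 and 94.1 CPM against 77.1 and 99.5 CPM. Ascl2 had 0 counts in these libraries.

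**Figure D3:**
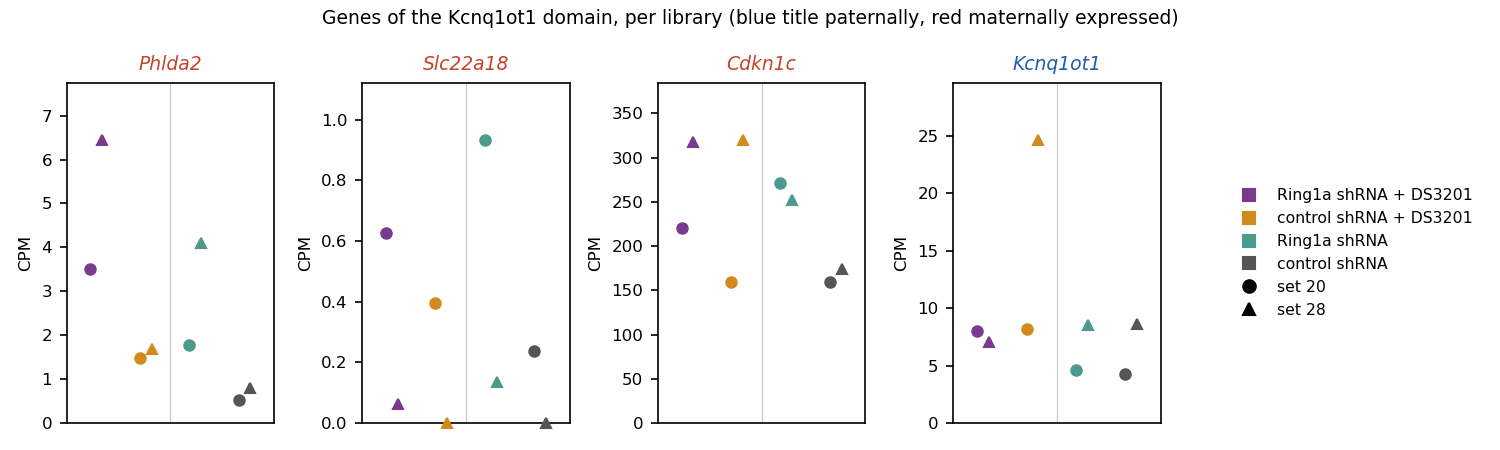
CPM per library (vertical axis, linear, own scale per gene) of 3 maternally expressed genes of the Kcnq1ot1 domain and of the noncoding RNA Kcnq1ot1, with DS3201 libraries left of the grey line. Phlda2 is higher with the Ring1a shRNA in both sets and both inhibitor states, and Kcnq1ot1 has 1 high library, at 24.6 CPM. None of the 4 genes passed for the Ring1a shRNA.

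Genes around the imprinted members were counted next. Within 500 kb of a member, 124 tested genes on neither imprinted list had coordinates, and 4 rose with DS3201 and 0 fell. With the block 11 rose (8.87%) and 9 fell, where 12.9% of all entries rose and 4.16% fell. None of the 8 tested neighbours in H19-Igf2, the 10 around Peg3 or the 6 around Mest passed upward in either fit. Around Grb10 the actin nucleator gene Cobl (4.27 CPM with DS3201, 0.682 CPM without it) and the lymphoid transcription factor gene Ikzf1 (1.28 CPM with it and 0.0673 CPM without it) rose in the blocked fit, with adjusted p of 0.0134 and 0.00344. In the Peg10-Sgce region the dynein chain gene Dync1i1 averaged 2.61 CPM with DS3201 and 0.0438 CPM without it (adjusted p = 0.00794), while no member of that domain passed. Likewise the H13 region held Sox12, a SOX transcription factor gene, at 23.9 CPM with DS3201 and 2.00 CPM without it (adjusted p = 0.0153), and Id1, a dominant-negative HLH gene, at 43.8 CPM with it and 16.8 CPM without it (adjusted p = 0.037). H13 itself had 111 to 139 CPM with DS3201 and 116 to 136 CPM without it.

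**Figure D4:**
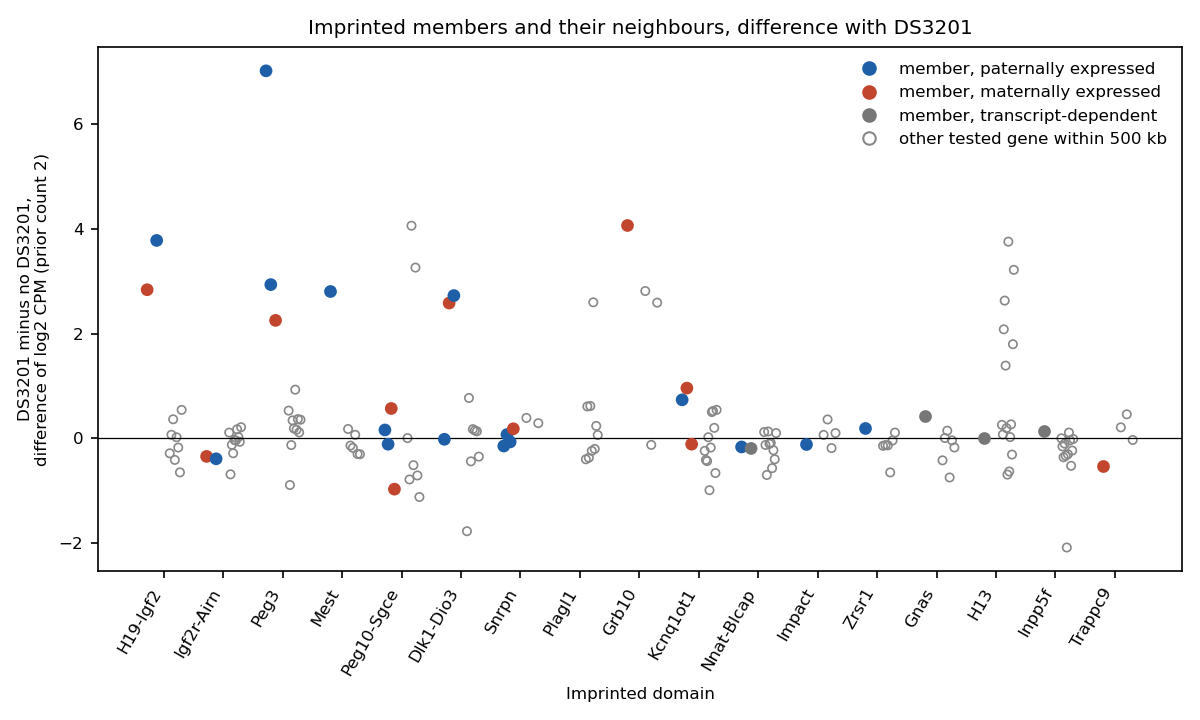
Difference of log2 CPM (prior count 2) between libraries with and without DS3201, averaged over shRNAs and sets, for tested imprinted members (filled) and other tested genes within 500 kb (open), by domain. In the H19-Igf2, Peg3 and Mest domains the members stand apart from their neighbours, and in the H13 and Peg10-Sgce regions the high points are neighbours.

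A separate list held 48 further imprinted genes, of which 44 matched a symbol in the table and 28 were tested. With DS3201 0 of the 28 passed and with the block 6 rose, Igf2os, Qpct, Ano1, Cmah, Herc3 and Peg13, with 0 lower. Over all entries 5.24% rose, and with the block 12.9% rose and 4.16% fell. Cmah, a sialic acid hydroxylase gene, averaged 33.3 CPM with DS3201 and 21.1 CPM without it (0.66 ± 0.16 with the block, adjusted p = 0.0301). Peg13, the noncoding RNA within Trappc9, averaged 40.7 CPM with DS3201 and 27.7 CPM without it (0.56 ± 0.12 with the block, adjusted p = 0.0228). Igf2os, antisense to Igf2, averaged 0.75 CPM with DS3201 and 0.105 CPM without it (adjusted p = 0.0415 with the block), and reads it shares with Igf2 cannot be separated without strand.

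Genes that keep or erase germline imprints were read as another list. Of 16 tested, 2 rose with DS3201 and 3 with the block, where 5.24% of all entries rose and 12.9% with the block. The de novo methyltransferase gene Dnmt3b had 13.7 and 10.5 CPM with the Ring1a shRNA and DS3201 and 11.4 and 7.33 CPM with the control shRNA and DS3201, against 5.69 and 4.17 CPM with the Ring1a shRNA alone and 2.66 and 2.01 CPM with the control shRNA alone (1.64 ± 0.27, adjusted p = 0.0221). Tet1, encoding an enzyme that oxidizes 5-methylcytosine, averaged 5.77 CPM with DS3201 and 0.412 CPM without it (3.88 ± 0.54, adjusted p = 0.0149). Dnmt3l, the cofactor of de novo methylation, passed with the block (adjusted p = 0.0266), at 0.574 CPM with DS3201 and 0.0168 CPM without it. The maintenance genes Zfp57, Zfp445, Trim28, Dnmt1 and Uhrf1 did not pass in either fit.

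Marker genes of other cell states moved with the inhibitor as well. For the counts below, 5.24% of all entries rose and 0.216% fell, and with the block 12.9% rose and 4.16% fell. The summed level of 10 fibroblast markers ran from 12350 to 14930 CPM with DS3201 and from 19080 to 21340 CPM without it, and 1 of 9 tested, Pdgfrb, fell (6 of 9 with the block). The 9 markers of 2-cell-like cells summed to 271 to 364 CPM with DS3201 and 20.7 to 38.8 CPM without it, and 7 of 9 rose (9 of 9 with the block). The 8 neuron markers summed to 61.2 to 115 CPM with DS3201 and 15.4 to 69.8 CPM without it, with 1 of 5 tested higher and 4 with the block. Skeletal muscle markers summed to 7.03 to 18.8 CPM with DS3201 and 1.27 to 10.0 CPM without it, and 1 of 3 tested was higher (3 of 3 with the block). The muscle regulators Myod1, Myog and Myf5 of this list failed the filter. Myod1 and Myog had at most 1 count in any library, and Myf5 at most 4. Adipocyte markers summed to 318 to 552 CPM with DS3201 and 555 to 573 CPM without it, and trophoblast markers to 8.29 to 45.2 CPM with it and 21.9 to 54.3 CPM without it. On each of the last 2 lists 0 were called, and 2 were lower with the block. No marker on these lists was at 0 in all 8 libraries, but Cdx2, Hand1, Myod1, Myog, Adipoq and Nefl had no library above 1 count. Their part in the changes of the imprinted genes was not tested.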

How the data were processed

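The deposited values are raw counts per gene symbol or repeat subfamily, not normalized by the authors. The submitters' processing notes name Trim Galore, TopHat2 and the build mm10; how reads were counted (tool, annotation, strand) is not given in the sources used here. Of the table's columns, 8 matched no labelled sample and were not used.

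Counts were scaled by TMM and tested in R 4.3.3 with edgeR 4.0.16 (filterByExpr by group, 1 term per group over all 8 libraries, robust glmQLFit, two-sided glmQLFTest, Benjamini-Hochberg adjustment over 15287 entries, threshold 0.05). Contrasts average or subtract group terms. Adjusted p-values are from this test, and standard errors from its F statistic; none is given where a group held 0 counts. Log2 CPM used a prior count of 2. A gene at 0 in the lower group is given against a floor of 3 counts over that group; other low ratios carry exact binomial intervals (95%), which cover counting error only. The fits were tested on simulated data. For DS3201 averaged over both shRNAs 97% of 4-fold and 99% of 8-fold changes were recovered. There 19 of 215 calls were false. Medians over members carry no test.

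The column prefix (set) was the replicate block of the alternative fit. The labels give each replicate number its own batch without naming the prefix, and between groups the correlation of set differences over genes was 0.559 to 0.897 (Pearson's r), so sets were taken as paired. DESeq2 1.42.0, other scaling, filters and prior counts, and leaving out libraries were alternatives. Gene lengths are exon unions of GENCODE; promoters are RefSeq's. The members, their parental classes and the other lists were chosen with earlier results of these data known. All 38 members are described by domain. Apart from Ring1 and Rnf2, genes outside the lists are named only where they passed near a member. Cdkn1c, Cd81, Osbpl5 and Nap1l4 were named after their values were seen.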

Additional observations from a re-analysis of the deposited data

Results flagged for a closer look

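Blcap, the gene around Nnat, had differences with the Ring1a shRNA that changed sign between inhibitor states. Without DS3201 its log2 CPM difference, Ring1a shRNA minus control shRNA, was 0.10 in set 20 and 0.07 in set 28. With DS3201 it was -0.04 in set 20 and -0.11 in set 28. The 2 mean differences stand 0.158 apart. The interaction in the fitted model was -0.16 ± 0.41 (edgeR quasi-likelihood test, adjusted p = 1, and 0.99 with the block), so the difference did not pass.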

How the results depend on the processing

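No result reversed under any alternative. With the replicate block the members called were 11 for DS3201 averaged over shRNAs, 6 for DS3201 with the control shRNA, 7 for DS3201 with the Ring1a shRNA and 9 for the Ring1a shRNA and DS3201 against the control shRNA; the block changed no other count. DESeq2 with the block, chosen after seeing the data, gave 11 (10 higher, and Igf2r lower), 6, 7 and 10 in the same order, and 1 for the averaged Ring1a shRNA. DESeq2 without it gave 4, 4 and 6 for the last 3 of these DS3201 comparisons, and no filter on low counts gave 2 and 3 for DS3201 with the control and with the Ring1a shRNA. Fitting only the libraries compared left 0 in these 3 comparisons.

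Leaving out single libraries gave 3 to 5 calls for DS3201 averaged (5 to 15 with the block), 0 to 1 with the control shRNA (3 to 9), 0 throughout with the Ring1a shRNA (2 to 8) and 0 to 3 for both treatments against control (3 to 11). For the Ring1a shRNA averaged it gave 0 (0 to 4 with the block), with DS3201 0 (0 to 5), without it 0 in both fits, and for the interaction 0 (0 to 1). Medians ran from 0.086 to 0.41 for paternally and 0.57 to 1.06 for maternally expressed members. Set 20 alone gave 0.39 and 1.02, and set 28 alone 0.62 for the paternal median. A prior count of 0.5 gave 1.21 and one of 5 gave 0.44 for the maternal median. The causes were not tested, and no share of all entries is given for the fits without a library. Depth limits Usp29, Zim1, Rian, Dio3, Plagl1, Ascl2, Meg3 and Calcr, whose levels without DS3201 lie at or near 0 counts.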
